A study of Mus musculus with 30 samples.

Results

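The genes that encode the protein parts of the cytosolic ribosome were followed on arrays of the newborn hypothalamus after a single estrogen injection. A gene was taken as a member where a probe set (the group of short oligonucleotides that measures a transcript on the array) carried its symbol alone, the symbol being Rpl or Rps and a number, or Rplp0, Rplp2 or Rpsa. Symbols of the S6 kinases, of an Rps19-binding protein and of pseudogenes were left out, and each gene was read from its brightest probe set. This gave 47 genes, 24 of the large subunit and 23 of the small subunit, of 18193 genes that had such a probe set, and it drew on 101 of the 45037 probe sets of the array. Another 31 symbols of this form appeared only in probe sets that carried several symbols, so they were not measured here. In all, 110 probe sets carried several symbols with at least 1 of a ribosomal protein, members included. Of the 47 members, 44 passed the filter on dim probe sets (22 of each subunit), and Rpl3l, Rpl39l and Rps16 did not. Ribosomal protein genes have many processed pseudogenes with near-identical sequence, so a probe set can also read such copies, and this holds most for the 14 members read from a probe set whose name ends in x_at, the mark for probes shared between sequences.

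The tissue was the whole hypothalamus of female C57BL/6J mice injected on the day of birth, taken 1, 3, 6, 12 or 24 h later from 3 mice per group. EB groups received estradiol benzoate (EB, a slowly released ester of estradiol), 7.5 μg under the skin in 20 μl of peanut oil, and vehicle groups received the oil alone, so every animal carried the injection and the oil. Each of the 30 GeneChip Mouse Genome 430 2.0 arrays measured an individual mouse, and litters were not stated, so p-values measure the spread between these mice. The study asked which genes respond to estrogen at the age when it shapes the sexual differentiation of the brain.

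Ribosomal proteins hold the ribosomal RNAs in shape and form the path of the mRNA, the transfer RNAs and the growing peptide. Small subunit proteins (Rps) surround the decoding of the mRNA, and large subunit proteins (Rpl) surround peptide bond formation and the exit tunnel, with a stalk of acidic proteins that recruits translation factors. Their mRNAs are among the most abundant of a cell, and most of them begin at a cytosine followed by a run of pyrimidines, the terminal oligopyrimidine (TOP) tract, through which their translation follows growth signals.

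The start sites of these genes were read from RefSeq (build GRCm38.p6), which held a promoter entry for 41 of the 47 members (49 entries). The letters CTTTC, searched on the transcribed strand from 10 bases before to 20 bases after the annotated start as a simple form of a pyrimidine tract, were present in 11 of the 49 entries (22.4%), against 3.74% of all 32851 entries. The windows of some members with the letters and some without are shown with the letters in capitals, since these genes carry the results that follow.
Rpl27a, chr7:109519185-109519214, plus strand: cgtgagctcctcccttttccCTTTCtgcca
Rpl13a, chr7:45128726-45128755, minus strand: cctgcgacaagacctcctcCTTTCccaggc
Rpl35, chr2:39005112-39005141, minus strand: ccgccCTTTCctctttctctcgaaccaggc
Rpl38, chr11:114668570-114668599, plus strand: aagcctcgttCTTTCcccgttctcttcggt
Rplp2, chr7:141447641-141447670, plus strand: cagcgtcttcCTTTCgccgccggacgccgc
Rps26, chr10:128626487-128626516, minus strand: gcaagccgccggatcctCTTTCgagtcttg
Rpl41, chr10:128549149-128549178, minus strand: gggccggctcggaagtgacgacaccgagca
Rpl37a, chr1:72711250-72711279, plus strand: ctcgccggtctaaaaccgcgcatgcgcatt
Rpl4, chr9:64173377-64173406, plus strand: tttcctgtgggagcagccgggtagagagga
Rpl39, chrX:37085203-37085232, minus strand: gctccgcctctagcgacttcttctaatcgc

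A core of the ETS family's binding motif, CCGGAAG on either strand of the whole 300 bases, stood in 21 of the 49 member entries (42.9%), against 8.86% of all entries. The full palindrome of the estrogen response element, GGTCANNNTGACC on either strand, stood in 0 of the 49 and in 0.07% of all. These are counts of letters in a window and say nothing of binding.

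The deposited values were MAS5 signals, whose median per array ran from 28.0 to 66.9 with the 12 h arrays brightest, so each array was scaled to one median. Of the 45037 probe sets, 27022 passed the filter. All 8 neuronal markers and 9 of the 10 listed hypothalamic markers (each one with a probe set) passed it, while 0 of 5 pituitary markers did. Precision is set by the number of arrays: with 3 against 3, the smallest p of an exact permutation test is 0.1.

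After this scaling, the arrays differed at the bright end, where most ribosomal protein genes lie. The 327 probe sets in the brightest hundredth that belong to no ribosomal protein had a mean log2 signal of 12.36 ± 0.073 (SD, n = 3) in vehicle mice and 12.41 ± 0.069 in EB mice at 1 h. At 6 h the means were 12.15 ± 0.050 and 12.21 ± 0.12, and at 12 h 12.13 ± 0.055 and 12.16 ± 0.017. At 24 h the vehicle mean was back at 12.41 ± 0.018 while the EB mean stayed at 12.15 ± 0.058. At this end of the scale the EB 24 h arrays thus lay with the arrays of 6 and 12 h, and the vehicle 24 h arrays with those of 1 and 3 h. No label or header names a batch, so array handling and treatment cannot be told apart at 24 h.

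EB and vehicle mice did not differ detectably in any ribosomal protein gene over the first 12 h. By limma with Benjamini-Hochberg adjustment over all 27022 probe sets, 0 of 44 members were called at 1, 3, 6 or 12 h or in the mean over the 5 times. The share of all probe sets called lower was 0.0037% at 1 h, 0.377% at 3 h, 0% at 6 h and 12 h and 0.0555% in the mean over times, and the share called higher was 0%, 0.0962%, 0%, 0% and 0.0185%. At an unadjusted p under 0.05, 2, 4, 2 and 2 members stood out at 1, 3, 6 and 12 h (8.63%, 12.8%, 6.02% and 6.57% of all probe sets), and 3 in the mean over times (8.69% of all). The methods' two-factor test was run on the deposited signals without scaling, with adjustment over all probe sets. It called 0 members in the mean over times (1 at an unadjusted p under 0.05, beside 4.58% of all probe sets). The counts stayed at 0 under every alternative run, except that Rpl27a was called in the mean over times without vehicle 6 h replicate 1.

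The members' median log2 difference, EB minus vehicle, over the first 4 times was 0.05, 0.08, 0.03 and 0.06 in order, beside 0.03, 0.05, 0.02 and -0.01 over all probe sets tested. Their sign depended on the scaling. Without scaling the medians turned to -0.05 at 1 h, -0.16 at 3 h and -0.08 at 12 h, beside -0.07, -0.20 and -0.15 for all probe sets, and after quantile normalization those of 1 and 6 h stood at -0.007 and -0.013. In the mean over the 5 times the lowest members were Rpl39 at -0.31, Rpl37a at -0.06 and Rps9 at -0.05, and the highest were Rps27 at 0.42, Rpl27a at 0.24 and Rps4l at 0.11. The smallest adjusted p among these 6 from limma was 0.14, for Rpl27a.

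At 24 h the ribosomal protein genes were lower in EB mice than in vehicle mice on the scaled arrays. By limma, 20 of 44 members were called lower and 1 was called higher, where 2.19% of all probe sets were called lower and 0.581% higher. The difference was negative for 38 of the 44, and their median was -0.26 on the log2 scale, beside -0.01 for all probe sets. Large subunit genes (11 lower, 1 higher, median -0.27) and small subunit genes (9 lower, 0 higher, median -0.23) gave like values. The EB and vehicle arrays did not overlap for 31 members that were lower (14.3% of all probe sets) and 2 that were higher (9.84%).

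The same shift was present in other bright probe sets. Of the 327 non-ribosomal probe sets of the brightest hundredth, 131 were called lower and 0 higher at 24 h, 310 differences were negative and the median was -0.24. After quantile normalization, which gives every array the same distribution of signals, the members' median was -0.02 (all probe sets 0.00) and 6 were called, 3 lower (1.39% of all probe sets) and 3 higher (0.91%). Without any scaling the members' median was -0.04 while that of all probe sets was 0.22, and 1 member was called, which was higher. Of the 21 calls, 4 stood in the same direction after quantile normalization, namely Rpl39, Rpl37a and Rpl4, which were lower, and Rpl27a, which was higher. Of the 20 members called lower, 5 turned in sign, and the number of negative differences went from 38 to 25 of 44.

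**Figure D1:**
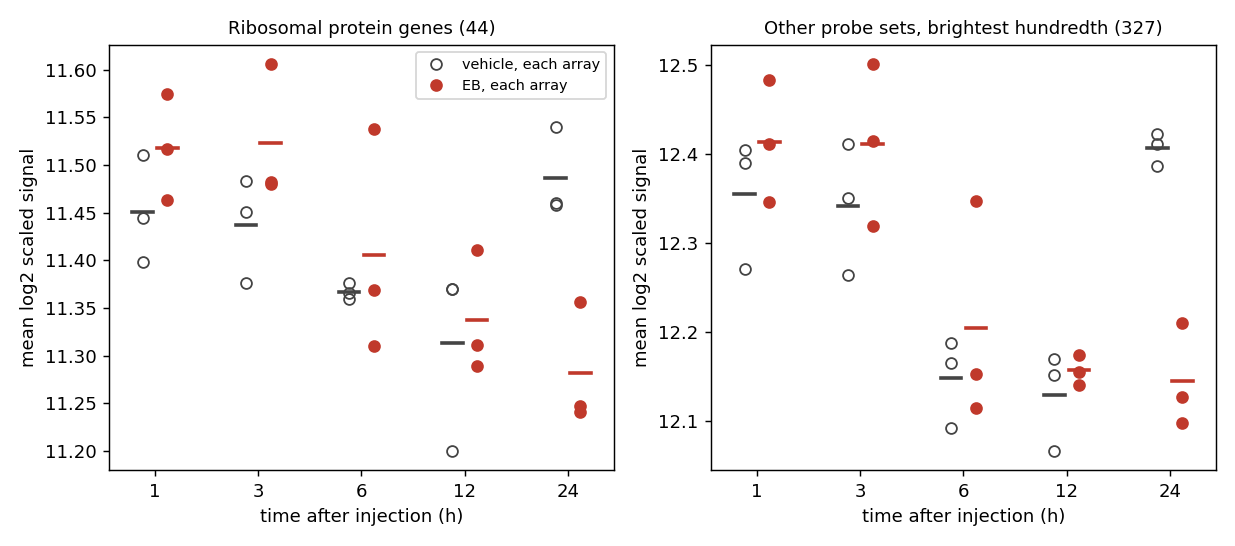
Mean log2 scaled signal per array on the y axis and hours since injection on the x axis, for the 44 ribosomal protein genes (left) and the 327 other probe sets of the brightest hundredth (right). Open circles are vehicle arrays, filled ones EB arrays, and short lines group means (n = 3). On both sides the EB arrays at 24 h lie below the vehicle arrays of that time and near the 6 h and 12 h arrays; after quantile normalization the 24 h median of the genes was -0.02.

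Other values moved with the 24 h result. The mean log2 signal of the 44 members was 11.49 ± 0.047 (SD, n = 3) in vehicle and 11.28 ± 0.065 in EB mice after scaling, and was 11.12 ± 0.18 and 11.14 ± 0.087 in the deposited values before it. The probe set for the 5′ end of 18S ribosomal RNA on the array, scaled in the same way, read 1430 ± 490 in vehicle and 2492 ± 284 in EB mice at 24 h, and its part in the result was not tested. The 3′ to 5′ signal ratio of beta-actin, a gauge of RNA integrity, was 1.39 ± 0.043 and 1.36 ± 0.039, and that of GAPDH was 0.740 ± 0.026 in vehicle and 0.691 ± 0.029 in EB mice, with overlapping arrays, and its part was not tested. The fibroblasts of the leptomeninges, which wrap the brain, were followed by 12 markers. All 12 passed the filter, and 11 were called lower in EB mice at 24 h (median -2.54). Their summed scaled signal was 9001 to 10828 in the vehicle arrays and 530 to 4855 in the EB arrays, and its part in the ribosomal result was not tested. Other marker lists had 24 h medians of -0.325 (7 of astrocytes and radial glia), -0.134 (8 neuronal) and -0.127 (6 endothelial). The medians were -0.108 for 9 hypothalamic, -0.004 for 6 microglial and 0.265 for 3 choroid plexus and ependymal markers. The part of these cell types was not tested either. In tissue as whole as this, fewer cells of a type and less RNA per cell cannot be told apart.

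Single arrays changed the number of calls more than the size of the shift. Leaving out vehicle 24 h replicate 1 left 9 members called at 24 h, vehicle replicate 2 left 12, EB replicate 1 left 8 and EB replicate 2 left 10, while the median stayed between -0.29 and -0.23 over all 30 such fits. None of the 30 fits removed the call on Rpl27a.

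In the large subunit, the strongest decrease among the bright probe sets was that of Rpl41, which encodes a very short, basic protein. Its scaled signal was 10646, 9983 and 9266 in the vehicle mice at 24 h and 6525, 6881 and 7300 in the EB mice. All EB values lay below all vehicle values, and Rpl41 fell by 0.53 on the log2 scale (SE 0.084, adjusted p = 0.00069 from limma). After quantile normalization its difference was -0.13 and was not called (adjusted p = 0.077). Its second brightest probe set moved by -0.59 and its 2 dim probe sets by 0.05 and 0.08, so that with probe sets of shared sequence left out the direction turned to 0.08.

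Rpl37a, a zinc-binding protein, read 7351, 6933 and 7098 in vehicle and 4720, 5415 and 5368 in EB mice at 24 h. The groups did not overlap, and it fell by 0.47 (adjusted p = 0.00084 from limma) and by 0.20 after quantile normalization (adjusted p = 0.043). Its other bright probe set moved by -0.40 and its dim one by 0.19. Rpl4, whose extended loop lines the peptide exit tunnel, read 7550, 7134 and 7184 in vehicle and 5331, 5061 and 5634 in EB mice. It fell by 0.45 (SE 0.077, adjusted p = 0.0012 from limma), and by 0.18 after quantile normalization (adjusted p = 0.031).

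Rpl39, another small protein of the exit tunnel, had the largest negative difference of all members but a dim probe set. It read 125, 99.0 and 72.2 in vehicle and 31.1, 27.7 and 77.6 in EB mice at 24 h, and the third EB array lay inside the vehicle range. The difference was -1.25 (SE 0.32, adjusted p = 0.03 from limma). The call was lost without vehicle 24 h replicate 1 or 2 or EB 24 h replicate 1 or 2, with differences between -1.23 and -0.97 and adjusted p from 0.093 to 0.21, without the filter (adjusted p = 0.061), without scaling (0.098) and in a fit of the 6 arrays of that time alone (0.069).

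Rpl13a, which also serves outside the ribosome in a complex that silences inflammatory mRNAs, read 8212, 8318 and 7512 in vehicle and 6113, 6450 and 6722 in EB mice at 24 h. The groups did not overlap, and the difference was -0.32 (adjusted p = 0.014 from limma) on the scaled arrays but 0.03 after quantile normalization. Rpl38, a protein that helps to translate Hox mRNAs in embryos, read 10018, 9161 and 9264 against 7190, 7634 and 7957, also without overlap. Its difference was -0.32 (adjusted p = 0.019 from limma) on the scaled arrays and 0.06 after quantile normalization. Rpl35, Rpl6 and Rpl10a were called lower too, at -0.29, -0.28 and -0.27 on the scaled arrays. After quantile normalization they stood at -0.04, -0.07 and -0.04, and none of them was called. Rpl11, which binds the p53 regulator Mdm2 when ribosome assembly is disturbed, read 5073, 4817 and 5023 in vehicle and 4097, 3908 and 4324 in EB mice, and its difference of -0.28 was not called (adjusted p = 0.083 from limma).

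Both measured proteins of the stalk were lower. Rplp2, an acidic stalk protein, read 9458, 8918 and 8727 in vehicle mice at 24 h and 6494, 6531 and 6994 in EB mice. Rplp0, the base that anchors the stalk, read 7916, 7414 and 7008 against 5640, 5856 and 6022. Neither gene's groups overlapped, and the differences were -0.44 for Rplp2 (adjusted p = 0.0012 from limma) and -0.35 for Rplp0 (adjusted p = 0.011). After quantile normalization they were -0.06 and -0.03, and neither was called.

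In the small subunit, Rps24, a protein mutated in some patients with Diamond-Blackfan anaemia, had the lowest adjusted p of the genes that fell. It read 8634, 8227 and 8361 in vehicle and 5873, 6283 and 6446 in EB mice at 24 h, without overlap, and fell by 0.44 (SE 0.065, adjusted p = 0.00038 from limma). After quantile normalization its difference was -0.08 and was not called (adjusted p = 0.31). Of its 6 probe sets, those that passed the filter stood at -0.44, -0.38, -0.26, -0.23 and -0.15.

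Rps14, whose loss causes the anaemia of the 5q- syndrome, read 7913, 7629 and 7466 in vehicle and 5786, 5794 and 6213 in EB mice at 24 h. The groups did not overlap, and the difference was -0.37 (adjusted p = 0.0041 from limma), but -0.04 after quantile normalization. Rpsa, known also as the laminin receptor, read 6831, 6712 and 6230 against 5117, 5294 and 5769. Its difference was -0.29 (adjusted p = 0.013 from limma) on the scaled arrays and -0.02 after quantile normalization, where it was not called. Rps28 and Rps29, small proteins of the subunit's head, were called lower at -0.34 and -0.31 on the scaled arrays, and stood at 0.03 and 0.14 after quantile normalization, where Rps29 was called higher (adjusted p = 0.046 from limma). Rps3a1, Rps4x, Rps26 and Rps2 were the other small subunit genes called lower, between -0.33 and -0.30 on the scaled arrays. After quantile normalization they stood at -0.05, -0.02, -0.08 and 0.03 in order, and none of them was called.

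**Figure D2:**
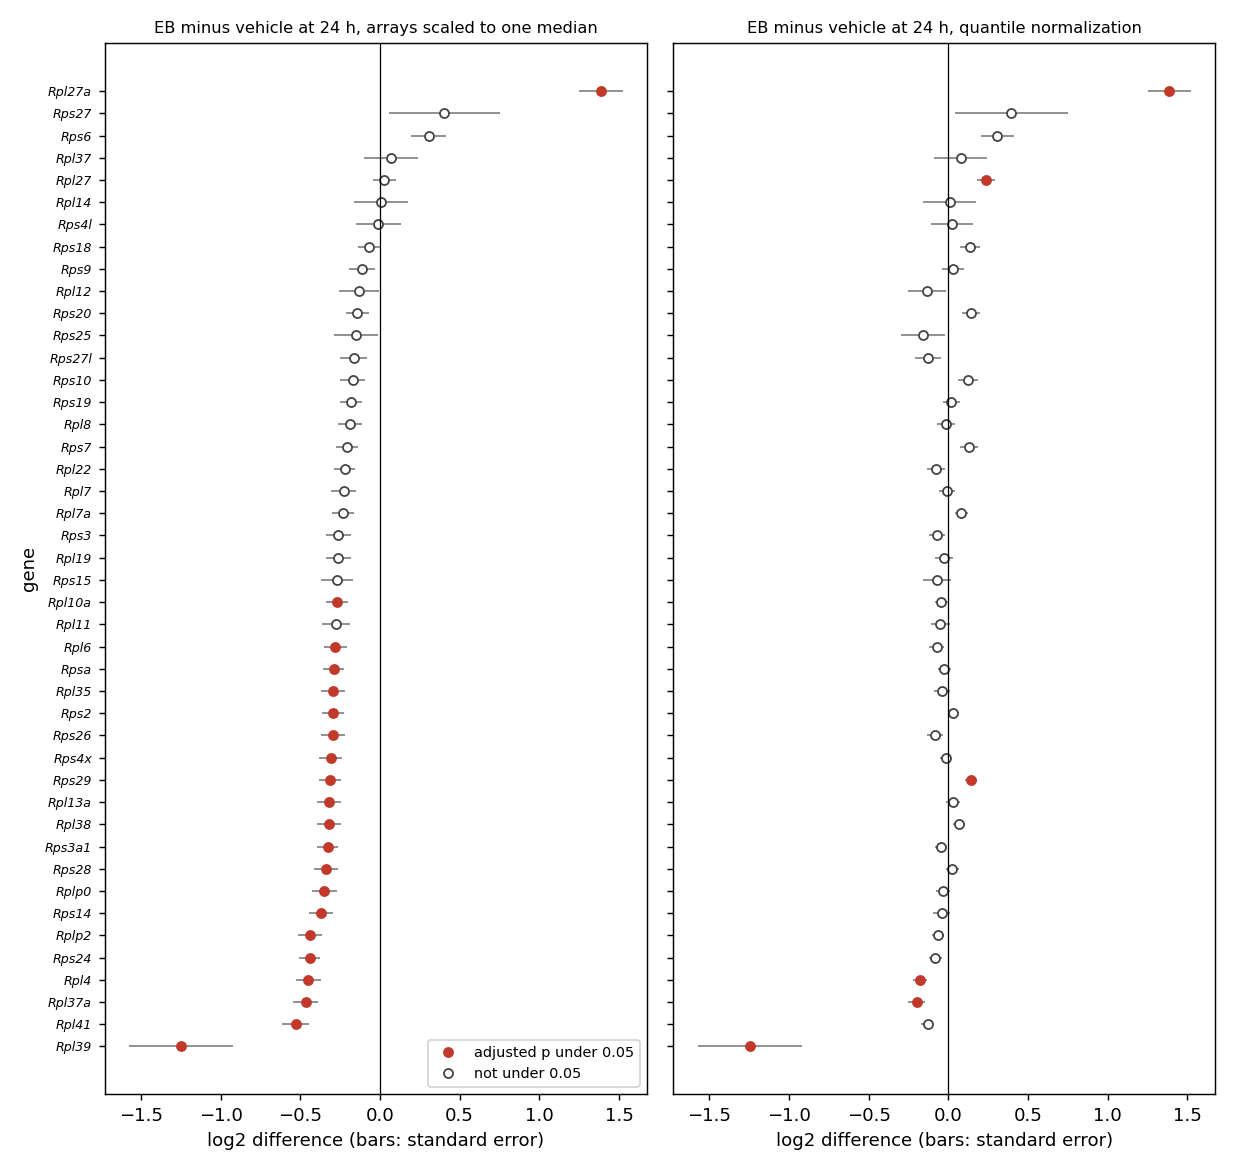
Log2 difference, EB minus vehicle at 24 h (x axis), for each of the 44 ribosomal protein genes (y axis) after scaling of each array to one median (left) and after quantile normalization (right), with bars for the standard error and filled points for an adjusted p under 0.05 from limma. On the left 20 genes are called lower and 1 higher, and on the right 3 are called lower and 3 higher around a median of -0.02.

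The probe set of Rps6, the small subunit protein phosphorylated by the S6 kinases, did not fall with the bright members. It was dim for a member, with a mean log2 signal of 7.87, and the 10 members below 11 had a median of -0.001. Whether it reads the main mRNA of the gene was not tested. The Rps6 probe set read 169, 180 and 211 in vehicle and 249, 226 and 216 in EB mice at 24 h. Every EB value lay above every vehicle value. The difference of 0.31 was not called (adjusted p = 0.14 from limma). The paralogue pairs gave no called difference at 24 h apart from Rpl39 and Rps4x. Rps27, whose probe set was dimmer still (mean log2 signal 6.87), was at 0.40 with widely spread arrays (SE 0.35). Its p53-responsive paralogue Rps27l was at -0.16, reading 967, 957 and 1012 in vehicle and 902, 888 and 830 in EB mice. Rps4x read 7138, 6940 and 6997 against 5449, 5571 and 6023 and fell by 0.31 (adjusted p = 0.015 from limma). Rps4l, whose probe set was dimmer (mean log2 signal 9.69 against 12.63), was at -0.01. After quantile normalization Rps4x was at -0.02 (adjusted p = 0.87 from limma) and Rps4l at 0.02. Rpl14, a large subunit gene with one of the dimmest probe sets that passed, was at 0.01.

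The 3 members that failed the filter were read near the floor of 1. The probe set of Rps16, a constant part of the small subunit, was at the floor on 26 of 30 arrays and reached 6.33 at most. That of Rpl3l, a paralogue used mainly in muscle, read at most 9.69, and that of Rpl39l, a paralogue used mainly in testis, at most 20.9. No level was taken from these probe sets.

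The probe set of Rpl27a, a protein of the large subunit, was the exception in direction and size. It was dim for a member, with a mean log2 signal of 7.94, where 34 of the 44 stood at 11 or more. Whether it reads the main mRNA of the gene was not tested. It read 151, 162 and 154 in vehicle mice at 24 h and 401, 414 and 406 in EB mice, a 2.61-fold difference. The log2 difference was 1.39 (SE 0.14, adjusted p = 1.3e-06 from limma) and stayed between 1.36 and 1.61 and called under every alternative run for it, quantile normalization and no scaling included.

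The time course of Rpl27a had the same shape in both treatments up to 12 h. In vehicle mice the 3 arrays read 111, 118 and 145 at 1 h, 188, 145 and 178 at 3 h, 602, 369 and 469 at 6 h, and 432, 372 and 349 at 12 h. In EB mice they read 138, 131 and 124, then 170, 156 and 173, then 410, 381 and 431, and then 317, 443 and 371. The signal thus stood higher at 6 and 12 h in both treatments, came down by 24 h in vehicle mice and did not in EB mice.

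Over all times, Rpl27a read 111 to 188 on the 15 arrays of the 1 h and 3 h groups and the vehicle 24 h group, and 317 to 602 on the 15 arrays of the 6 h and 12 h groups and the EB 24 h group. These sets of groups, chosen after the values were seen and given without a test, also differed in the mean of the brightest hundredth of other probe sets, which ran from 12.26 to 12.50 and from 12.07 to 12.35. The part that this shift between arrays has in the Rpl27a values was not tested. The other probe set of Rpl27a was dimmer still and did not pass the filter, reading at most 25.5, so no second probe set bears on the gene.

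**Figure D3:**
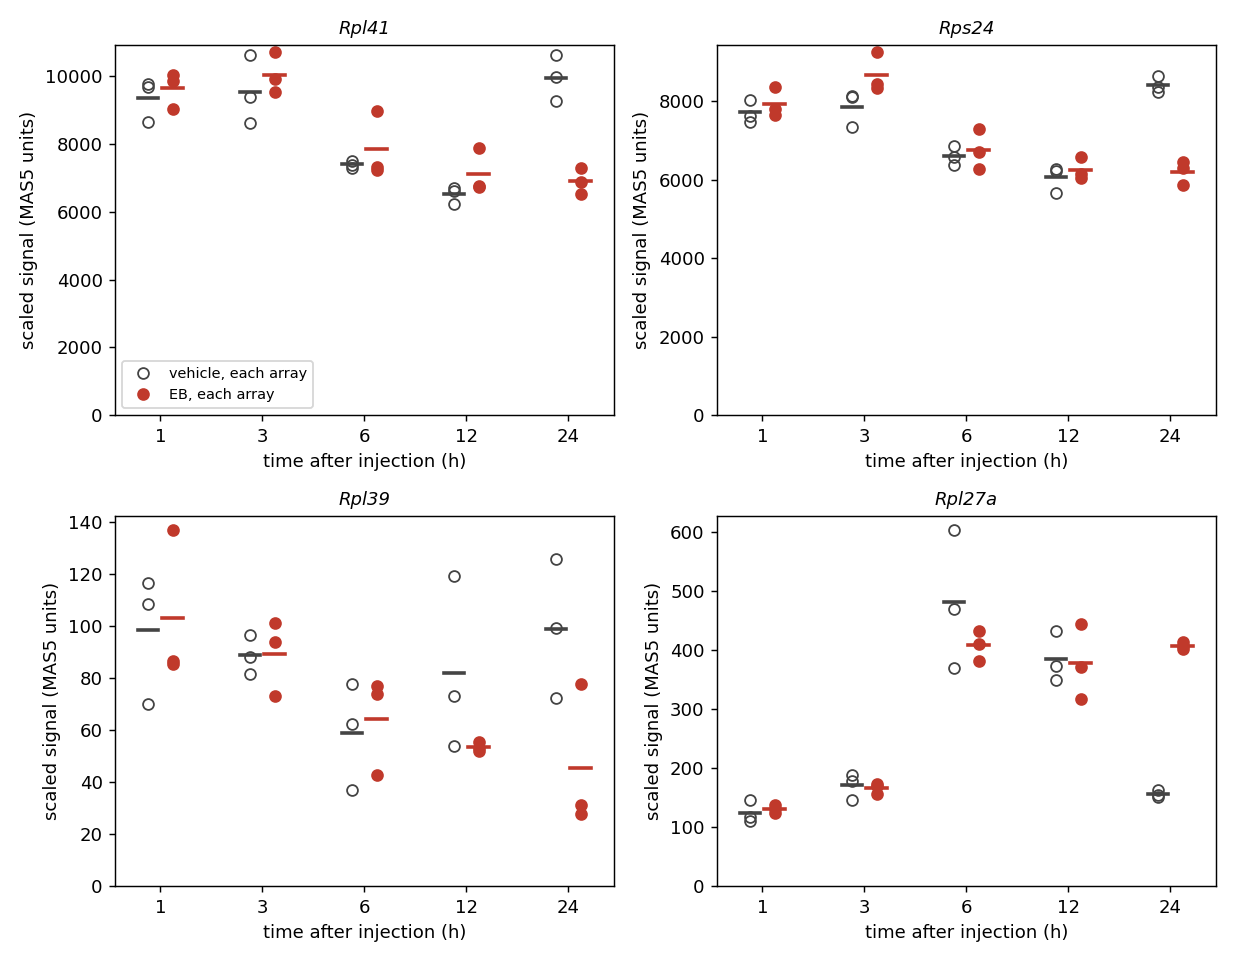
Scaled signal per array in MAS5 units on a y axis from 0 and hours since injection on the x axis, for Rpl41, Rps24, Rpl39 and Rpl27a. Open circles are vehicle arrays, filled ones EB arrays, and short lines group means (n = 3). Rpl41 and Rps24 are lower and Rpl27a is higher in all 3 EB arrays at 24 h than in the vehicle arrays of that time, while 1 EB array of Rpl39 lies within the vehicle range; with probe sets of shared sequence left out Rpl41 stood at 0.08.

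The size of the 24 h difference followed the signal of the probe set. Among the 34 members with a mean log2 signal of 11 or more, 19 were called lower, 33 were negative and the median was -0.28. Among the 10 below 11, 1 was called lower, 1 higher, and the median was 0.00. Over the 44 members Spearman's rho between mean signal and difference was -0.68 and Pearson's r was -0.36, as a description across genes that share the same 6 arrays. The arrays of a group lay closely together for the bright members, with a within-group SD of 0.073 to 0.14 on the log2 scale (median 0.088), and less so for those below 11 (0.10 to 0.50, median 0.19).

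The other probe sets of the same genes had a smaller median difference, though single ones were larger. The 44 of them that passed the filter included 11 called lower and 1 called higher at 24 h, and their median was -0.16. The one called higher measures Rps10, a protein of the subunit's head. It read 1014, 382 and 1093 in vehicle and 2307, 2629 and 1336 in EB mice (log2 difference 1.42, adjusted p = 0.021 from limma), and like the probe set of Rpl27a it was also high at 12 h in both treatments, with 2706, 2190 and 2284 in vehicle and 2133, 2712 and 3138 in EB mice. The other 4 probe sets of Rps10 stood at -0.17, -0.07, -0.32 and -0.40. Rps10 was named after these values were seen.

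**Figure D4:**
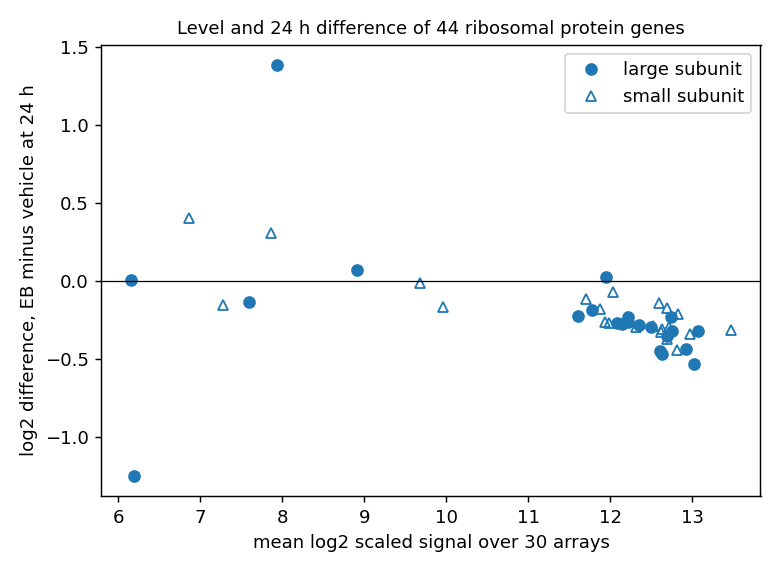
Log2 difference, EB minus vehicle at 24 h (y axis), against the mean log2 scaled signal over all 30 arrays (x axis) for the 44 ribosomal protein genes, with circles for the large and triangles for the small subunit. Of the 34 genes at 11 or more 33 lie below 0 on the scaled arrays, and the 10 dimmer genes spread from -1.25 to 1.39; after quantile normalization the median of all 44 was -0.02.

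Without EB, the ribosomal protein genes also varied over the first day on the scaled arrays, as other bright probe sets did. In vehicle mice 30 of 44 members differed between the 5 times (34.1% of all probe sets; limma F test), and in EB mice 34 of 44 did (22.8%). After quantile normalization the counts were 17 of 44 (31.6% of all) and 8 of 44 (22.9%), not far from the shares of all probe sets. In vehicle mice the members' median log2 difference from 1 h at the later 4 times was -0.01, -0.13, -0.26 and 0.04 in order. In EB mice it was 0.03, -0.15, -0.21 and -0.27. The brightest hundredth of other probe sets followed the same course, at -0.01, -0.20, -0.21 and 0.06 in vehicle and 0.00, -0.20, -0.24 and -0.24 in EB mice, while the medians over all probe sets stayed between -0.01 and 0.09.

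The difference between 1 and 24 h in each treatment depended on the scaling. The members' median of 24 h against 1 h was 0.04 in vehicle and -0.27 in EB mice after scaling, -0.26 and -0.25 without it, and 0.001 and -0.032 after quantile normalization. On the scaled arrays, in vehicle mice 1 member was lower at 24 h than at 1 h (1.8% of all probe sets) and 1 was higher (4.97%). Rps9, which lies near the entry of the mRNA, read 3794, 4198 and 3844 at 1 h and 3444, 2969 and 3290 at 24 h, a difference of -0.29 (adjusted p = 0.031 from limma), and stood at 0.15 where probe sets of shared sequence were left out. Rpl13a rose from 7012, 7004 and 5577 to 8212, 8318 and 7512 (0.30, adjusted p = 0.013 from limma), and stood at -0.11 where probe sets of shared sequence were left out.

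In EB mice 29 members were lower at 24 h than at 1 h (5.51% of all probe sets) and 1, Rpl27a, was higher (4.71%). The differences were -1.31 for Rpl39, -0.48 for Rpl41, -0.46 for Rpl37a, -0.43 for Rps15, a protein near the decoding centre, and 1.64 for Rpl27a. After quantile normalization 3 members were lower (5.13% of all) and 4 higher (4.65%), and 8 of the 29 that had been lower turned in sign. Rpl13a and Rpl7a, which were not called on the scaled arrays (-0.18 and -0.20), were then called higher (0.15 and 0.12). Without EB 1 h replicate 2 the count fell from 30 to 13, without EB 24 h replicate 1 to 16 and without EB 24 h replicate 2 to 19. This comparison shares the EB 24 h arrays with that of EB against vehicle at 24 h, and 20 members were called in the same direction in both.

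**Figure D5:**
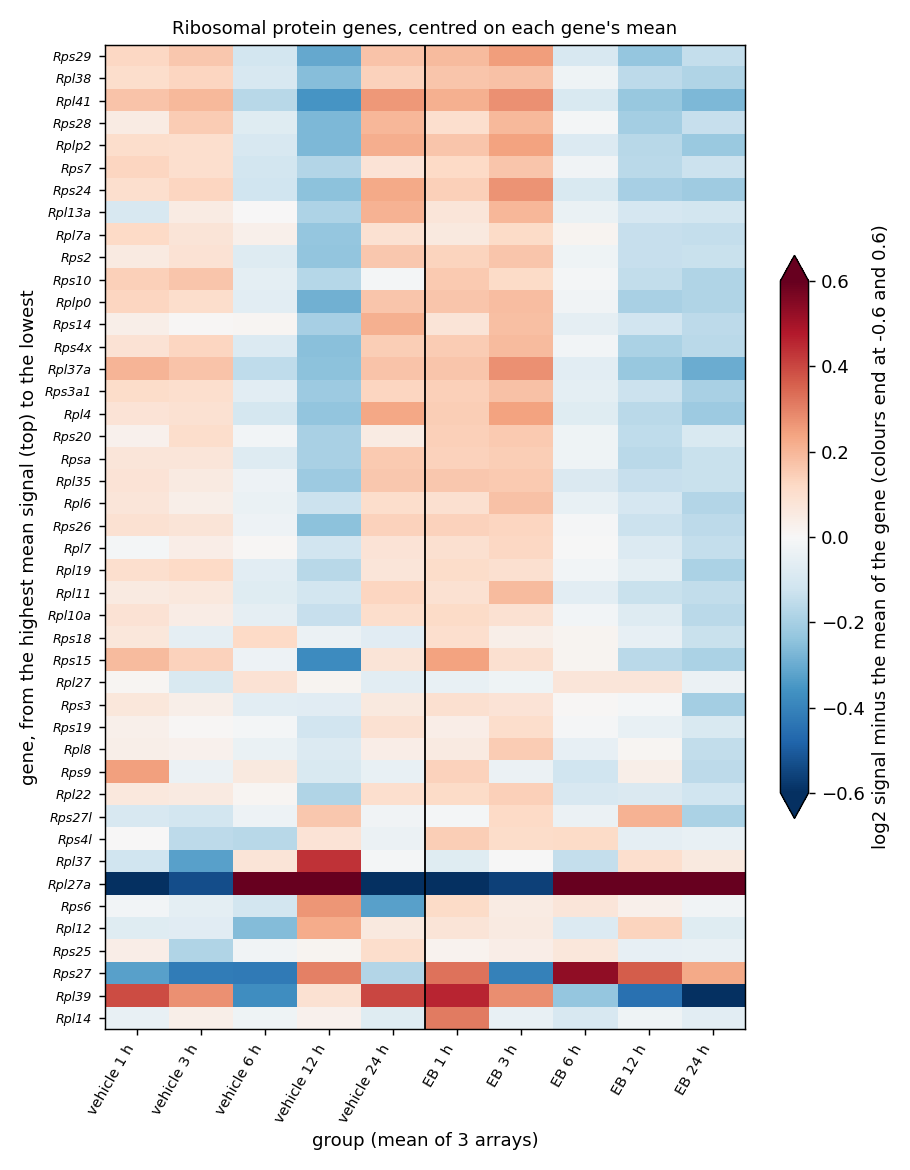
Mean log2 scaled signal of each group of 3 arrays minus the mean of the gene over the 10 groups, for the 44 ribosomal protein genes (rows, from the highest mean signal at the top) in vehicle (left 5 columns) and EB (right 5 columns), with red for higher and blue for lower. Most bright genes are lower at 6 and 12 h in both treatments and at 24 h in EB mice alone, Rpl27a runs the other way, and after quantile normalization the 24 h median between treatments was -0.02.

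The effect of EB differed between the 5 times for 8 of 44 members (0.951% of all probe sets; limma F test of the treatment by time interaction). These were Rpl27a, Rps24, Rpl41, Rplp2, Rpl4, Rpl37a, Rps14 and Rpl13a. Rps24 was at 0.14 at 3 h and at -0.44 at 24 h, and Rps14 at 0.17 and -0.37. After quantile normalization or without scaling 1 member was called, which under both was Rpl27a (0.803% of all probe sets after quantile normalization). The methods' two-factor test on the deposited signals, adjusted over all probe sets, called 0 members (2 probe sets in all), and 3 members had an unadjusted p under 0.05 in it (15.8% of all probe sets). The count fell to 1 without vehicle 24 h replicate 1 or EB 24 h replicate 1, to 2 without vehicle replicate 2, and to 4 without vehicle replicate 3 or EB replicate 2.

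Other genes of protein synthesis were described from lists of the same kind. Of 19 listed translation genes with TOP mRNAs outside the ribosomal proteins, 15 were measured, 5 were called lower at 24 h and the median was -0.21, where 2.19% of all probe sets were called lower. The 5 were Tpt1 at -0.51, the elongation factor Eef1a1 at -0.39, Fau, which encodes a ribosomal protein fused to a ubiquitin-like one, at -0.33, the initiation factor subunit Eif3e at -0.30 and the poly(A)-binding Pabpc1 at -0.28. Of 30 ribosome biogenesis genes 1 was lower (Ncl, nucleolin, at -0.28, with a list median of -0.05). A list of TOR and translation control genes held the TOR pathway, which controls TOP mRNAs, and also Myc, Mycn, Max and Mlx. Of its 19 measured genes 0 passed in either direction by limma (median -0.05). The 76 mitochondrial ribosomal protein genes, which serve a separate ribosome, had 3 lower and 0 higher and a median of -0.02. In the brightest hundredth of probe sets outside the ribosomal proteins, 131 of 327 were called lower and the median was -0.24. The lists were not matched for signal, and the part of signal level in how they differ was not tested. At an unadjusted p under 0.05 from limma, 15.7% of all probe sets stood. The counts were 11 of 15 for the TOP list, 6 of 30 for biogenesis, 1 of 19 for TOR and translation control and 14 of 76 for the mitochondrial genes.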

How the data were processed

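The deposited intensity of each probe set was the linear signal of MAS5, which the submitters' processing notes name. Its version, and how far arrays were scaled before deposit, are not given in these sources. Arrays were brought to a common median of 41.3 (the mean of their medians), signals under 1 were set to 1, and log2 was taken. The 64 control probe sets and the 40% with the lowest mean log2 signal were dropped. A model with 1 term per group was fitted over the 30 arrays in limma 3.58.1 (R 4.3.3; eBayes with a trend), with Benjamini-Hochberg adjustment over the 27022 probe sets kept and a threshold of 0.05. Symbols came from the platform's annotation.

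Genes named by rule are members called in a comparison (at most 8 a direction), the 5 brightest and 5 dimmest, and the 3 highest and 3 lowest in the mean over times. Paralogue pairs and the stalk proteins with Rpsa, Rps6 and Rpl11 were also in the rule. Beyond it, the other members called lower at 24 h were named, and Rpl7a, Rps7, Rps18 and Rps20 for the effect of quantile normalization. Rps10 and Rpl27 were added after values were seen. The members and lists were chosen with earlier results of these data known. Alternatives covered scaling, floor, filter, array weights, the replicate number, the arrays fitted, the probe set chosen, the methods' test and fold limits, and leaving out each array. The fit was tested on simulated data. No 2 arrays were identical.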

Additional observations from a re-analysis of the deposited data

Results flagged for a closer look

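The effect of EB differed between the 5 times for 8 ribosomal protein genes by the limma interaction test, and each is given here for that reason. The adjusted p was 2e-04 for Rpl27a, 0.0082 for Rps24, 0.014 for Rpl41, 0.017 for Rplp2, 0.018 for Rpl4, 0.019 for Rpl37a, 0.03 for Rps14 and 0.042 for Rpl13a. After quantile normalization, and also without scaling, Rpl27a alone was called by this test. Rpl27a was higher in EB mice at 24 h, and the other 7 were lower there on the scaled arrays. After quantile normalization those 7 stood between -0.20 (Rpl37a) and 0.03 (Rpl13a) at 24 h. Rpl41 stood at 0.08 where probe sets of shared sequence were left out.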

How the results depend on the processing

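Most calls at 24 h depended on the normalization. Without scaling, the members' median difference turned in sign to -0.047 (1 h), -0.163 (3 h) and -0.083 (12 h), and was -0.038 at 24 h and -0.258 (also turned) for 24 h against 1 h in vehicle mice, with 1 member called at 24 h, 3 for 24 h against 1 h in EB mice and 1 in the interaction. With quantile normalization the medians were 0.004 at 3 h, -0.021 at 24 h and -0.032 for 24 h against 1 h in EB mice, and the counts were 6 at 24 h, 7 for 24 h against 1 h in EB mice, 1 in the interaction, 17 over time in vehicle mice and 8 over time in EB mice. Quantile normalization turned the sign of 13 members at 24 h, among the called ones Rpl13a (0.03), Rpl38 (0.065), Rps2 (0.033), Rps28 (0.026) and Rps29 (0.141). It turned 12 for 24 h against 1 h in EB mice, among the called ones Rpl38 (0.016), Rps2 (0.064), Rps7 (0.095), Rps14 (0.079), Rps18 (0.002), Rps20 (0.062), Rps28 (0.094) and Rps29 (0.085).

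Without the filter 13 members were called at 24 h, 1 for 24 h against 1 h in vehicle mice and 2 in the interaction, where 47 members and 45037 probe sets were tested. Array weights gave 21 in the interaction and the methods' two-factor test 0, and the methods' fold limits took 2 at 24 h. With probe sets of shared sequence left out the interaction called 4 and 24 h against 1 h in vehicle mice called 0, and Rpl41 turned to 0.082 at 24 h and 0.27 for 24 h against 1 h in EB mice, Rpl13a to -0.11 and Rps9 to 0.15 for 24 h against 1 h in vehicle mice. The causes were not tested.

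Leaving out each of the 30 arrays gave 8 to 23 calls at 24 h, 13 to 31 for 24 h against 1 h in EB mice and 0 to 3 in vehicle mice, 1 to 11 in the interaction, 0 to 1 in the mean over times, 28 to 35 over time in EB mice and 27 to 31 in vehicle mice. The median difference between EB and vehicle then lay between -0.001 and 0.077 (1 h), 0.038 and 0.113 (3 h), -0.045 and 0.075 (6 h), 0.007 and 0.086 (12 h), -0.294 and -0.227 (24 h) and -0.026 and -0.005 (mean over times), and that of 24 h against 1 h between -0.01 and 0.067 in vehicle and -0.306 and -0.25 in EB mice. Of 15 correlations between same-numbered arrays 0 were over 0.1 (-0.13 to 0.09), so they gave no sign of a pairing by number. From groups of 3 arrays they cannot exclude shared litters or handling. With the replicate number as a block 21 members were called at 24 h, 29 for 24 h against 1 h in EB mice, 7 in the interaction, 31 over time in vehicle mice and 34 in EB mice.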

Other observations

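The probe set of Rpl27a was compared with all others over the 30 arrays after its course had been seen, as a description in which all probe sets share the same arrays. The named genes most like it by Pearson's r were Tmem181a (0.93) and Tubb2a, a tubulin (0.93), then Copb2, a vesicle coat protein (0.91), Mier2 (0.91) and Rmdn3 (0.90). Their log2 differences, EB minus vehicle at 24 h, were 0.84, 1.15, 0.54, 0.80 and 0.55. None of them encodes a ribosomal protein.

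Rpl27, a large subunit gene whose bright probe set read 3823, 3565 and 3962 in vehicle and 3871, 3883 and 3808 in EB mice at 24 h, was the bright member that did not follow the others on the scaled arrays (log2 difference 0.03, adjusted p = 0.9 from limma), and it was called higher after quantile normalization (0.23, adjusted p = 0.023).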
